A study of Mus musculus with 4 samples.

Results

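The clustered protocadherins are cadherin-like adhesion proteins whose genes stand in 3 neighbouring clusters, alpha, beta and gamma, on mouse chromosome 18. The genes described here are those whose symbol begins with Pcdha, Pcdhb or Pcdhg, which gave 58 of the 45706 genes in the count table. By symbol and position they were 12 alpha genes, 22 beta genes, 12 gamma A genes, 7 gamma B genes and 5 C-type genes (Pcdhac1 and Pcdhac2 at the end of the alpha cluster, and Pcdhgc3, Pcdhgc4 and Pcdhgc5 at the end of the gamma cluster). The genes were chosen by symbol alone and selected on no measured value, but the family was taken up with results of the same genotype comparison known, so its counts of called genes are a description and are printed beside the same share over all genes tested.

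As background, each clustered protocadherin is a single-pass membrane protein with extracellular cadherin repeats, and copies of the same protein on neighbouring cells bind each other. In the alpha and gamma clusters each gene has a large variable exon with its own promoter, which encodes the extracellular part, and this exon is spliced to a set of constant exons shared by all genes of the cluster, which encode the common cytoplasmic tail. Beta genes are single-exon genes with no shared constant exons. The alternative promoters are bound by CTCF and cohesin, which bring them to distant enhancers, and neurons switch on different combinations of the genes. The C-type genes are set apart from this choice and are transcribed more uniformly. The family is best known for neuronal self-recognition and survival, and no role in the outflow tract is assumed here.

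The samples were outflow tracts of C57BL/6 mouse hearts at embryonic day 12.5, the vessel-forming end of the developing heart. WT embryos were labelled wild type. Sox17eKO embryos lacked Sox17, an endothelial transcription factor, in the endothelium of the aortic root through Cre recombinase driven by an Nfatc1 enhancer, so other cells of the tissue kept the gene. Each genotype had 2 libraries, each from 10 pooled hearts, with 20 mice per genotype, and the series' design names the search for Sox17 targets as its purpose. The labels do not say whether the wild-type embryos carried Cre or floxed alleles, and p-values measure the spread between 2 pools per genotype.

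Reads assigned to genes ranged from 8113463 in WT replicate 2 to 21883956 in Sox17eKO replicate 2. Sox17 itself had 78 and 54 reads in WT and 40 and 62 in the deeper Sox17eKO libraries, which is 6.04 and 6.82 against 2.75 and 2.82 CPM (reads relative to library size, scaled by the TMM method), a log2 fold change of -1.19 (SE 0.23, edgeR adjusted p = 0.00573, and 0.0771 without WT replicate 2). Sox17eKO libraries had more reads outside exons, 31.8% ± 3.27 (SD, n = 2) of uniquely placed reads against 21.3% ± 1.29 in WT. Of 16570 genes tested, 5.35% passed an adjusted p of 0.05, 4.13% higher and 1.22% lower in Sox17eKO, and the median log2 fold change was -0.01. An unadjusted edgeR p under 0.05 was found in 3471 of the 16570 genes, in either direction.

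In the GRCm38 annotation the family spans 911690 bases of the plus strand, chr18:36930184-37841873. The alpha cluster with its C-type genes lies at chr18:36930184-37187661, the beta cluster at chr18:37264938-37524479 and the gamma cluster at chr18:37661793-37841873. All 22 beta genes consist of 1 exon block. Every gamma gene ends at the shared constant exons, so a gene such as Pcdhga1 spans 180081 bases and overlaps all the gamma genes after it. Reads that fall on exons of several genes are ambiguous to a gene counter. The counts of alpha and gamma genes therefore come from exonic bases outside the exons of every other annotated gene on the strand. These are called own bases here. They made up 33.2% to 68.5% of the exonic bases of the gamma A and B genes and 90.3% to 100% of those of the beta genes. In the alpha genes the share was 8.56% (Pcdha4) to 61.1%. Own bases of a later alpha or gamma gene still lie within the spans of earlier genes of its cluster. Unspliced RNA of an earlier gene could be counted there, and the part of such reads was not tested. Levels are given below as CPM per kilobase of own exonic bases when genes are compared. Reads not placed uniquely made up 72.55% (Sox17eKO replicate 2) to 78.97% (WT replicate 2) of all deposited counts and entered no gene. How uniquely reads from each gene's exons can be placed was not tested.

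Of the 19 gamma A and gamma B genes, 14 were called higher in Sox17eKO, beside 4.13% of all genes tested. Of the 16 tested beta genes 0 were called, beside 5.35% of all genes tested in either direction. Pcdhgc3 was not called, and no alpha gene could be tested. Of the 58 genes, 39 passed the filter on low counts, 17 had reads but fell under it, and 2, Pcdha4 and Pcdhb1, had no read in any library. Of the 39 tested genes, 15 (38.5%) passed the edgeR test higher in Sox17eKO, beside 4.13% of all genes tested. None (0) passed lower by edgeR, limma-voom or DESeq2, beside 1.22% by edgeR. At an unadjusted edgeR p under 0.05, 21 were higher and 1 lower, beside 3471 of 16570 genes tested in either direction. The 15 called genes were 8 gamma A genes, 6 gamma B genes and Pcdhgc5, with fold changes from 1.42 to 2.48. Both Sox17eKO libraries stood above both WT libraries for 28 of the 39 tested genes, beside 26.5% of all genes tested, and below them for 2, beside 26.2%. The median log2 fold change of the tested family was 0.51. The tissue was measured in bulk, so a larger share of cells that express a gene and more RNA per cell cannot be told apart.

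Summed over the 19 gamma A and B genes, the level was 161 and 143 CPM in WT replicates 1 and 2 and 263 and 249 CPM in Sox17eKO replicates 1 and 2, a ratio of group means of 1.69. The gamma A genes alone summed to 98.3 and 89.2 CPM in WT and 158.5 and 154.0 CPM in Sox17eKO, a ratio of 1.67. The gamma B genes summed to 62.7 and 53.4 CPM in WT and 104.6 and 95.2 CPM in Sox17eKO, a ratio of 1.72. The 22 beta genes summed to 54.7 and 57.6 CPM in WT and 61.1 and 61.0 CPM in Sox17eKO, a ratio of 1.09. In each of these sums both Sox17eKO libraries lay above both WT libraries, as they did for 26.5% of all single genes tested. For 2 libraries against 2, the smallest two-sided exact permutation p is 0.333, so no p is given for these sums.

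**Figure D1:**
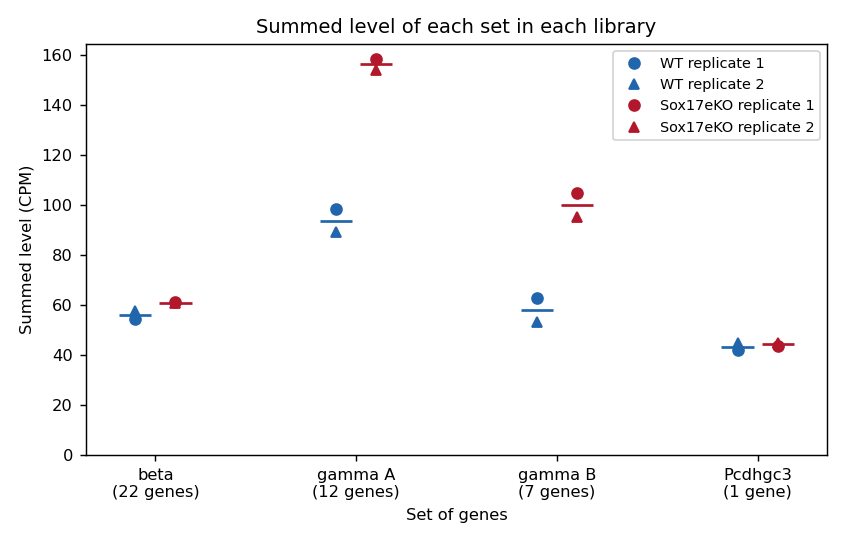
Summed level in CPM of the beta genes, the gamma A genes, the gamma B genes and Pcdhgc3 in each of the 4 libraries, with circles for replicate 1, triangles for replicate 2, blue for WT, red for Sox17eKO and a bar at each group mean. The gamma A sums lie at 89.2 and 98.3 CPM in WT and at 154.0 and 158.5 CPM in Sox17eKO, while those of beta and Pcdhgc3 differ little between genotypes.

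Ratios within a library do not depend on its depth or scaling. Gamma A and B reads per beta read were 2.94 and 2.48 in WT and 4.31 and 4.09 in Sox17eKO. Gamma A and B reads per Pcdhgc3 read were 3.84 and 3.19 in WT and 6.02 and 5.54 in Sox17eKO. Beta reads per Pcdhgc3 read were 1.30 and 1.29 in WT and 1.40 and 1.36 in Sox17eKO. The first 2 ratios separated the genotypes widely and the third by a narrow margin, and each ratio rests on sums over the genes and has no test.

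All 12 gamma A genes passed the filter. All 12 had a positive fitted log2 fold change, from 0.37 to 1.13 with a median of 0.72, beside 48.2% positive over all genes tested. In all 12 both Sox17eKO libraries stood above both WT libraries, beside 26.5% of all genes tested. Of the 12, 8 passed the test, beside 4.13% called higher over all genes tested. Pcdhga10 (ENSMUSG00000102222) had the smallest adjusted p of the family. It had 132 and 54 reads in WT and 283 and 417 in Sox17eKO, or 10.2 and 6.82 against 19.5 and 18.9 CPM, a log2 fold change of 1.13 (SE 0.16, edgeR adjusted p = 0.000433). Its Sox17eKO libraries lay close together, while WT replicate 2 was lower than WT replicate 1. Pcdhga8 was at 7.36 and 7.20 CPM in WT and 14.0 and 14.5 CPM in Sox17eKO, a log2 fold change of 0.97 (SE 0.15, edgeR adjusted p = 0.00112). Pcdhga9 was at 9.14 and 6.95 CPM in WT and 16.2 and 15.4 CPM in Sox17eKO, a log2 fold change of 0.94 (SE 0.15, edgeR adjusted p = 0.00186). Pcdhga3 was at 8.98 and 8.71 CPM in WT and 16.2 and 15.7 CPM in Sox17eKO, a log2 fold change of 0.84 (SE 0.14, edgeR adjusted p = 0.00226). For each of these 3 genes the gap between genotypes was larger than the gap between the replicates of either.

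The other 4 called gamma A genes had smaller margins. Pcdhga5 was at 6.66 and 5.18 CPM in WT and 12.4 and 9.63 CPM in Sox17eKO (log2 fold change 0.85, edgeR adjusted p = 0.0128). Pcdhga12, the last gamma A gene before the C-type genes, was at 4.80 and 6.69 CPM in WT and 10.8 and 9.54 CPM in Sox17eKO (0.85, adjusted p = 0.0133 by edgeR). Pcdhga7, with tight replicates, was at 12.2 and 12.3 CPM in WT and 18.5 and 18.3 CPM in Sox17eKO (0.59, adjusted p = 0.0111 by edgeR). Its neighbour in size, Pcdhga11, passed by little, at 9.83 and 9.09 CPM in WT and 13.1 and 13.9 CPM in Sox17eKO (0.51, adjusted p = 0.0452 by edgeR).

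Of the 7 gamma B genes, 6 passed the test, beside 4.13% called higher over all genes tested. The median log2 fold change was 0.82, with a range of 0.42 to 1.14. Pcdhgb1, the first gamma B gene, had the highest value, with 5.42 and 3.28 CPM in WT and 10.4 and 9.67 CPM in Sox17eKO, a log2 fold change of 1.14 (SE 0.21, edgeR adjusted p = 0.00348). Pcdhgb5 was at 12.8 and 11.5 CPM in WT and 25.0 and 20.3 CPM in Sox17eKO, a log2 fold change of 0.88 (SE 0.14, edgeR adjusted p = 0.00129). Pcdhgb4 was at 13.5 and 12 CPM in WT and 21.2 and 20.7 CPM in Sox17eKO, a log2 fold change of 0.71 (SE 0.13, edgeR adjusted p = 0.00348). In all 3 genes the lower Sox17eKO library exceeded the higher WT library by more than the replicates differed. Pcdhgb6 (log2 fold change 0.82), Pcdhgb7 (0.61) and Pcdhgb8 (0.88) had edgeR adjusted p-values of 0.00402, 0.0339 and 0.0275. Pcdhgb8 is annotated as a polymorphic pseudogene and had 4.34 and 3.03 CPM in WT and 7.57 and 6.49 CPM in Sox17eKO.

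The remaining 5 gamma A and B genes did not pass. Pcdhga1, Pcdhga4 and Pcdhga6 are named here after their values were seen. Pcdhga1 was at 5.19 and 5.05 CPM in WT and 7.16 and 6.18 CPM in Sox17eKO, with a log2 fold change of 0.37 (95% interval -0.05 to 0.79, edgeR adjusted p = 0.306). Pcdhga2, Pcdhgb2, Pcdhga6 and Pcdhga4 had log2 fold changes of 0.40, 0.42, 0.53 and 0.51, with edgeR adjusted p-values of 0.0918, 0.0993, 0.101 and 0.154. In each of the 5 genes both Sox17eKO libraries were above both WT libraries, beside 26.5% of all genes tested. The intervals of the 5 genes overlapped those of called genes.

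**Figure D2:**
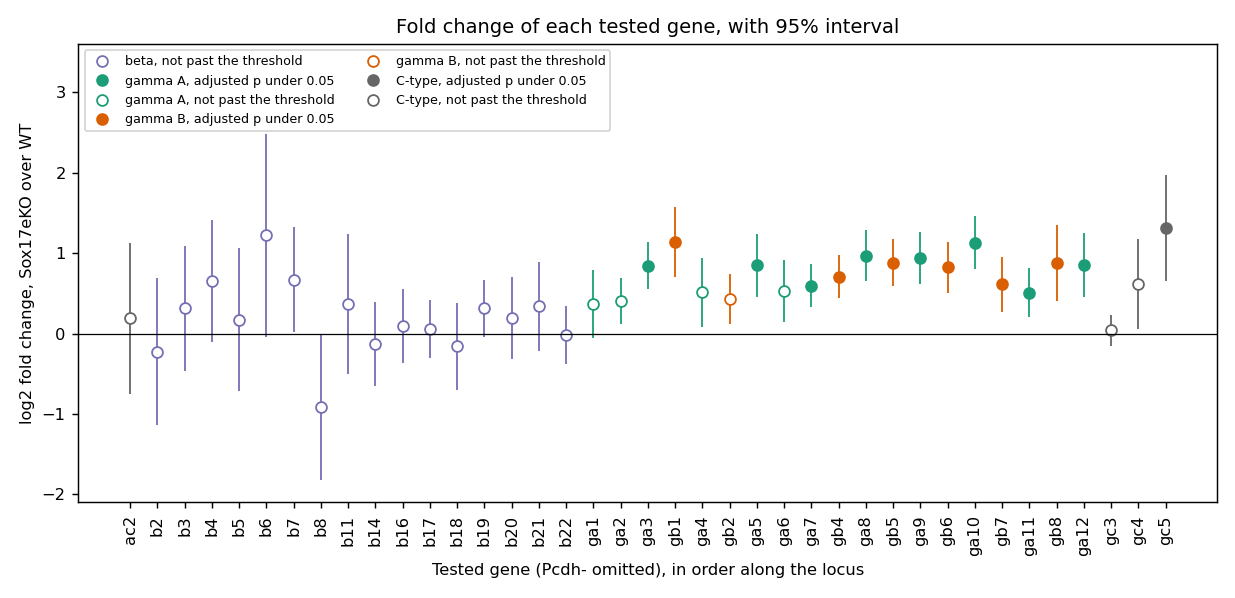
Log2 fold change, Sox17eKO over WT, with its 95% interval for the 39 tested genes in order along the locus, filled where the adjusted p was under 0.05 and coloured by subgroup. The filled points are the 14 called gamma A and B genes and Pcdhgc5, while the open beta points range from -0.92 to 1.22, most with wide intervals.

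The calls rested on few reads and few libraries. Leaving out WT replicate 2, the shallowest library, left 6 gamma A and B genes called, and leaving out Sox17eKO replicate 1 left 8, against 14 with all libraries. Without WT replicate 1 or without Sox17eKO replicate 2 there were 12 in each case. Pcdhga3, Pcdhga8, Pcdhgb5, Pcdhga9 and Pcdhga10 stayed called whichever library was left out. Pcdhga11 and Pcdhgc5 passed in none of the 4 reduced fits, with edgeR adjusted p-values of 0.083 to 0.249 and 0.073 to 0.104. Without WT replicate 2, the edgeR adjusted p was 0.0684 for Pcdhgb1, 0.0583 for Pcdhgb4, 0.0777 for Pcdhgb6, 0.0839 for Pcdhga7, 0.146 for Pcdhga5, 0.235 for Pcdhgb8 and 0.269 for Pcdhgb7. Without Sox17eKO replicate 1 it was 0.121 for Pcdhga5, 0.0547 for Pcdhga7, 0.158 for Pcdhgb7, 0.156 for Pcdhgb8 and 0.084 for Pcdhga12. Pcdhga12 also missed the threshold without WT replicate 1 (0.126) and Pcdhgb7 without Sox17eKO replicate 2 (0.0792). The fitted direction was higher in Sox17eKO for all 19 genes in each of these 4 fits.

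Along the gamma cluster the genes lie in the order Pcdhga1 to Pcdhga12, with the gamma B genes between them, followed by the C-type genes. In WT the level of the gamma A and B genes ran from 1.26 CPM per kilobase of own bases in Pcdhga12 to 4.38 in Pcdhga2. In Sox17eKO it ran from 2.05 in Pcdhga1 to 7.35 in Pcdhga10. The order of the genes by level was similar in the genotypes (Spearman's rho 0.804 over 19 genes, which share libraries and constant exons). The difference in level was smallest in Pcdhga1, at 0.48 CPM per kilobase, and was 2.72 in Pcdhga3, 2.79 in Pcdhga8 and 4.09 in Pcdhga10, before it dropped again to 1.34 in Pcdhgb8 and 0.97 in Pcdhga12. Up to Pcdhga6, at 1.18, the differences rose and fell without a steady slope. From there they rose unevenly to Pcdhga10 and then fell at each following gene to Pcdhga12.

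Of the first 11 gamma A and B genes, Pcdhga1 to Pcdhga8, 6 were called, and of the last 8, Pcdhgb5 to Pcdhga12, all 8 were. Over all genes tested, 4.13% were called higher. The division was made after the values were seen. The median log2 fold change was 0.59 in the first 11 and 0.87 in the last 8. Position and log2 fold change had a Spearman's rho of 0.389 over the 19 genes, and WT level and log2 fold change had one of -0.421. Both are descriptions across genes that share libraries and exons. The WT level is also the denominator of the fold change, so error in it alone can give a negative rho.

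**Figure D3:**
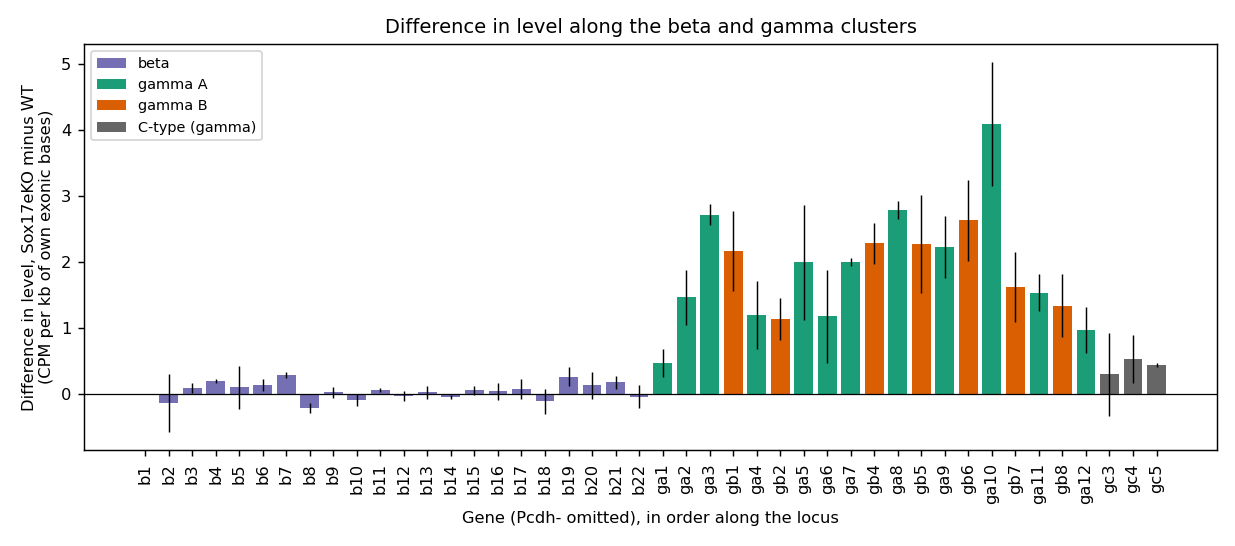
Difference in level, Sox17eKO minus WT, in CPM per kilobase of own exonic bases for the 22 beta and 22 gamma genes in order along the chromosome, with error bars of the square root of the summed squared SDs of the genotypes (n = 2 each). The bars rise to 4.09 at Pcdhga10 and fall to 0.97 at Pcdhga12, while the beta genes stay close to 0.

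The C-type genes ranged from the best measured gene of the family to a gene with almost no reads. Pcdhgc3 (ENSMUSG00000102918), whose variable exon lies between the gamma A and B genes and the constant exons, had the most reads of the family, 542 and 354 in WT and 635 and 991 in Sox17eKO. Its level was 12.4 and 13.2 CPM per kilobase of own bases in WT and 12.9 and 13.3 in Sox17eKO, so the libraries of the genotypes overlapped. Its log2 fold change was 0.04 (95% interval -0.15 to 0.23, edgeR adjusted p = 0.86), an interval that lies below the point estimate of each of the 19 gamma A and B genes. In WT Pcdhgc3 stood at 12.8 CPM per kilobase, against 4.38 for Pcdhga2, the next highest gene.

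Pcdhgc5 (ENSMUSG00000102543), the last gene of the cluster, had 17 and 12 reads in WT and 51 and 76 in Sox17eKO. Its level was 1.32 and 1.52 CPM in WT and 3.51 and 3.45 CPM in Sox17eKO, a log2 fold change of 1.31 (SE 0.31, edgeR adjusted p = 0.0202), the highest fold in the tested family and also among its lowest counts. Pcdhgc4 had 50 and 17 reads in WT and 74 and 102 in Sox17eKO, and was not called (log2 fold change 0.62, 95% interval 0.05 to 1.18, edgeR adjusted p = 0.191). Leaving out WT replicate 1 gave a log2 fold change of 1.17, leaving out WT replicate 2 gave 0.32, and neither passed. Pcdhac2 had 13 and 6 reads in WT and 14 and 24 in Sox17eKO, with a log2 fold change of 0.19 (95% interval -0.75 to 1.13). Pcdhac1 had no read in WT and 1 and 3 reads in Sox17eKO and was not tested. The C-type sum, 48.2 and 49.1 CPM in WT and 53.4 and 54.3 CPM in Sox17eKO, was mostly Pcdhgc3.

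**Figure D4:**
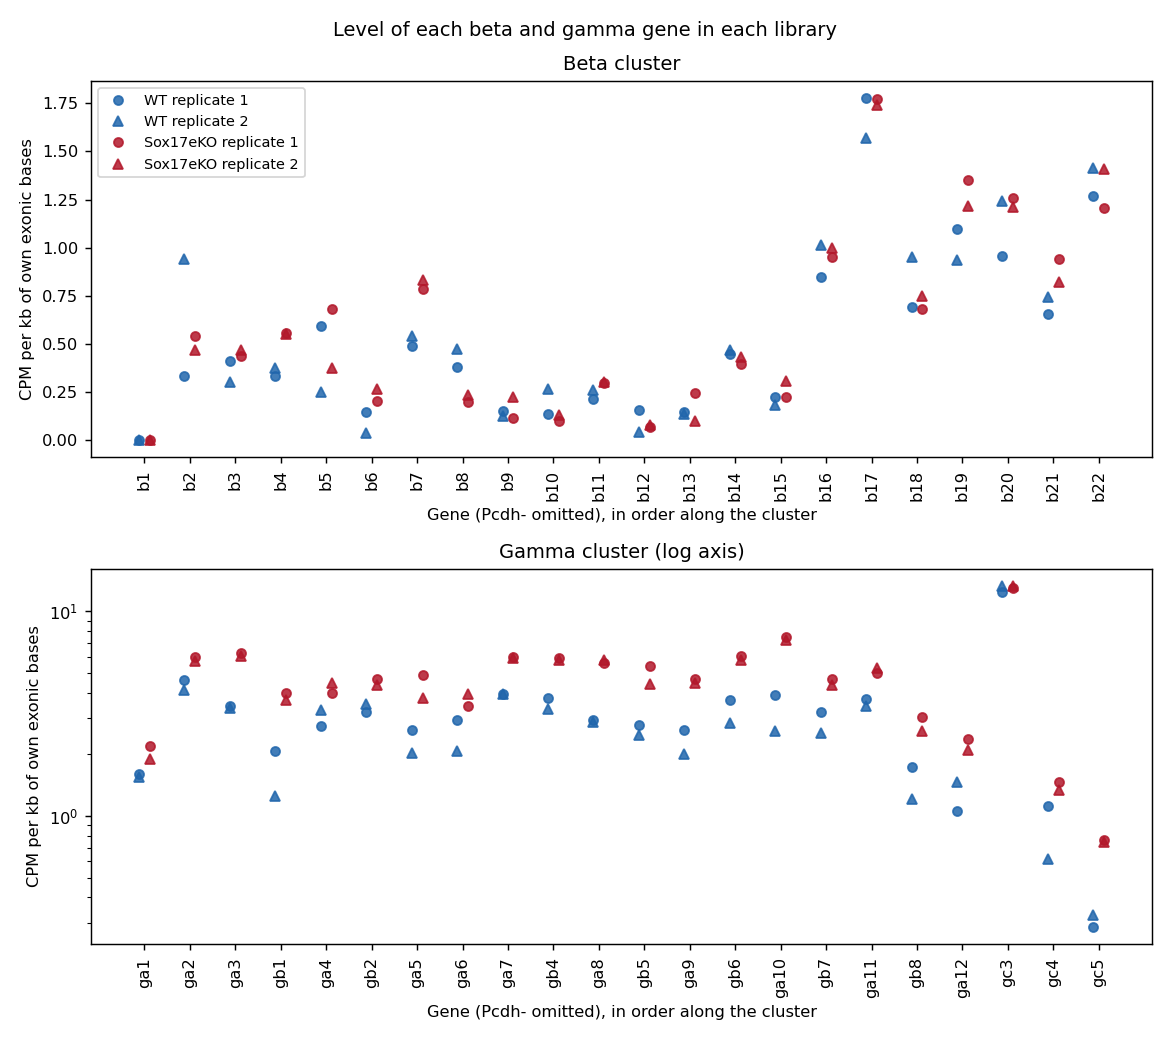
Level of each beta gene (upper panel) and each gamma gene (lower panel, log axis) in CPM per kilobase of own exonic bases in each of the 4 libraries, in order along the clusters, with circles for replicate 1, triangles for replicate 2, blue for WT and red for Sox17eKO. The red points lie above the blue points for all 19 gamma A and B genes, and the colours overlap at Pcdhgc3, which is the highest of all at about 13.1 CPM per kilobase in Sox17eKO.

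No beta gene passed the edgeR test, beside 5.35% of all genes tested that passed in either direction. Of the 22 beta genes, 16 were tested, 5 fell under the filter and Pcdhb1 had no read. With 16 tested, 11 fitted values were above 0 and 5 below, beside 48.2% of all genes tested above 0. The median log2 fold change was 0.18, with a range from -0.92 in Pcdhb8 to 1.22 in Pcdhb6. Both Sox17eKO libraries stood above both WT libraries for 7 of the 16, beside 26.5% of all genes tested. They stood below for 2, beside 26.2%. Unadjusted p-values by edgeR were under 0.05 in 2 of the 16 genes, beside 3471 of 16570 genes tested. Limma-voom and DESeq2 (without its filter on low means) also called 0. The 2 with such p-values were Pcdhb8 and Pcdhb7, the latter named after its values were seen. Pcdhb8 was at 1.32 and 1.64 CPM in WT and 0.688 and 0.817 CPM in Sox17eKO. Pcdhb7 was at 1.70 and 1.89 CPM in WT and 2.75 and 2.91 CPM in Sox17eKO. The log2 fold changes of Pcdhb8 and Pcdhb7 were -0.92 and 0.67, each with an edgeR adjusted p of 0.225.

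Beta genes had fewer reads than gamma genes, which widened their intervals. Of the 16 intervals, 14 held 0. The median of the gamma A and B genes, 0.82, lay within 7 of the 16, and the other 9 were wholly below it. Among the best measured beta genes, Pcdhb17 and Pcdhb22 were near 0 and Pcdhb19 was fitted higher. Pcdhb17 had 107 and 58 reads in WT and 120 and 179 in Sox17eKO, a log2 fold change of 0.06 (95% interval -0.30 to 0.41). Pcdhb22 had 101 and 69 reads in WT and 108 and 191 in Sox17eKO, a log2 fold change of -0.02 (95% interval -0.38 to 0.35), and it shares 455 exonic bases with Pcdhb21, where reads of either gene are ambiguous. Both intervals ended below the gamma A and B median. Pcdhb19 had 101 and 53 reads in WT and 140 and 191 in Sox17eKO. Its log2 fold change was 0.31 (95% interval -0.05 to 0.67). Both of its Sox17eKO libraries stood above both WT libraries, beside 26.5% of all genes tested. Pcdhb19, Pcdhb20 (0.19), Pcdhb18 (-0.16) and Pcdhb2 (-0.23) did not pass either. Pcdhb2 was at 0.929 CPM in WT replicate 1 and 2.65 CPM in WT replicate 2, and without replicate 2 its fitted value turned to 0.59.

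Beta genes differed in level along the cluster. In WT the 7 genes at the gamma side of the cluster, Pcdhb16 to Pcdhb22, stood at 0.70 to 1.67 CPM per kilobase of own bases, and the 15 genes before them at 0 to 0.64, a division made after the values were seen. In Sox17eKO the ranges were 0.72 to 1.76 and 0 to 0.81, so the ranges overlapped. Summed, Pcdhb16 to Pcdhb22 gave 38.0 and 40.4 CPM in WT and 42.2 and 42.3 CPM in Sox17eKO. Order along the cluster and WT level had a Spearman's rho of 0.613 over the 22 genes. The order of the 16 tested genes by level was similar in the genotypes (rho 0.874). The highest beta level, that of Pcdhb17, was below the WT level of most gamma A and B genes and far below that of Pcdhgc3. Pcdhb6 was the gene just inside the filter, with 7 and 1 reads in WT and 11 and 22 in Sox17eKO, and Pcdhb15 was just outside it, with 8 and 4 in WT and 9 and 19 in Sox17eKO.

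The alpha genes had almost no countable reads. The 12 genes together had 12 and 10 reads in WT and 22 and 14 in Sox17eKO, and none passed the filter, so no fold change was fitted. The most reads of any alpha gene in a library were the 8 of Pcdha9 in Sox17eKO replicate 1, beside 3 in Sox17eKO replicate 2 and 0 and 2 in WT. Pcdha5 had 3 and 2 reads in WT and 1 and 0 in Sox17eKO, Pcdha8 had 2 and 1 in each genotype, and Pcdha10 had 1 and 2 in WT and 3 and 2 in Sox17eKO. Pcdha4 has only 494 own bases in which reads could be counted. A count of 0, as in Pcdha4 and Pcdhb1, allows up to 3 reads, which is 0.379 CPM in the shallowest library and 0.136 CPM in the deepest, for counting error only. Differences between genotypes were not detectable at this depth.

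Genes around the clusters gave no call, but few were tested. Of the 12 neighbours listed, 10 were tested and 0 passed in edgeR, limma-voom or DESeq2. Over all genes tested edgeR called 5.35%, and 10 genes are too few to tell 0 from that share. At an unadjusted edgeR p under 0.05, 1 neighbour was lower, beside 3471 of 16570 genes tested in either direction. The 10 neighbours had a median log2 fold change of -0.09 and a range from -0.40 to 0.06. Taf7, a general transcription factor subunit that lies between the beta and gamma clusters on the other strand, was at 40.5 and 38.8 CPM in WT and 35.9 and 35.5 CPM in Sox17eKO (log2 fold change -0.15, edgeR adjusted p = 0.372). Diaph1, an actin-nucleating formin beyond the gamma end, had a log2 fold change of 0.06 (SE 0.12). A long noncoding RNA, 3222401L13Rik, ends 51 bases before Pcdhga1 on the same strand. It had 104 and 50 reads in WT and 103 and 168 in Sox17eKO, a log2 fold change of 0.01 (95% interval -0.37 to 0.40), and it was named after its values were seen.

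Among the regulators and partners of the family, 39 of 40 listed genes were tested and 1 passed, higher in Sox17eKO, beside 4.13% of all genes tested. It was Nipbl, which loads cohesin onto chromatin, at 138 and 123 CPM in WT and 170 and 172 CPM in Sox17eKO, a log2 fold change of 0.39 (SE 0.08, edgeR adjusted p = 0.00788). Without WT replicate 2 its adjusted p by edgeR was 0.144, and with a trend on gene length removed it was 0.0856. Ctcf, the factor bound at the variable promoters, was at 78.9 and 87.1 CPM in WT and 78.5 and 87.5 CPM in Sox17eKO (0.01, SE 0.08, with either sign among the settings of the fit). Rad21, a cohesin subunit, had a log2 fold change of -0.07 (SE 0.07). Smchd1, which helps to silence the clusters, had one of 0.11 (SE 0.08), and -0.16 with the length trend removed. The median of the 39 was 0.03, beside -0.01 over all genes tested.

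Of 21 non-clustered protocadherins and large cadherins, which stand elsewhere in the genome and use no shared constant exons, 17 were tested and 4 passed, all higher in Sox17eKO, beside 4.13% of all genes tested. Pcdh7 was at 144 and 127 CPM in WT and 191 and 197 CPM in Sox17eKO (log2 fold change 0.51, SE 0.08, edgeR adjusted p = 0.00126). Fat1 was at 401 and 333 CPM in WT and 512 and 551 CPM in Sox17eKO (0.53, SE 0.09, edgeR adjusted p = 0.00238). Fat3 and Fat4 had log2 fold changes of 0.47 and 0.39, with edgeR adjusted p-values of 0.00294 and 0.0162. Without WT replicate 2 the edgeR adjusted p was 0.0643 for Fat1, 0.0763 for Fat3 and 0.235 for Fat4, and Fat4 also missed the threshold without Sox17eKO replicate 2 (0.117). With the trend on gene length removed, the edgeR adjusted p was 0.58 for Fat3 and 0.362 for Fat4. Pcdh12, a protocadherin of endothelial cells, was at 18.4 and 20.8 CPM in WT and 18.0 and 20.7 CPM in Sox17eKO (-0.01, SE 0.13, with either sign among the settings of the fit). The median of the 17 was 0.18.

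Markers of other cell types were read for their own change. Of 8 tested neuronal markers 0 passed in edgeR, limma-voom or DESeq2, beside 5.35% of all genes tested by edgeR. At an unadjusted edgeR p under 0.05, 1 was lower, beside 3471 of 16570 genes tested in either direction. The 8 neuronal markers summed to 157 to 159 CPM in WT and 143 to 144 CPM in Sox17eKO. Most of that sum was Hand2, which the outflow tract itself expresses, and the other 7 summed to 35.2 and 34.9 CPM in WT and 36.4 and 25.7 CPM in Sox17eKO. Among these, Tubb3 stood at 13.5 to 21.4 CPM, Stmn2 at 5.72 to 8.84 CPM and Elavl4 at 3.27 to 4.61 CPM, while Elavl3, Snap25 and Syt1 stood at 1.55 CPM or less in every library. Of 6 tested markers of neural crest and Schwann precursors 0 passed by the same tools or at an unadjusted p under 0.05. The sum of these 6 was 42.4 to 42.8 CPM in WT and 37.0 to 44.0 CPM in Sox17eKO. Foxd3, which fell under the filter, had 2 reads or fewer in every library.

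Cushion mesenchyme markers went both ways. Of 6, 2 passed in edgeR, both higher in Sox17eKO, beside 4.13% of all genes tested, and limma-voom called 1 and DESeq2 0. These were Vcan, a matrix proteoglycan (log2 fold change 0.52, edgeR adjusted p = 0.0105), and Pdgfra, a growth factor receptor (0.32, edgeR adjusted p = 0.04). Twist1 (-0.22, edgeR adjusted p = 0.137) and Col1a1 (-0.18, edgeR adjusted p = 0.216), named after their values were seen, had lower levels in both Sox17eKO libraries and did not pass. The list summed to 2936 to 3544 CPM in WT and 3972 to 4279 CPM in Sox17eKO. Of 6 cardiomyocyte markers 1 passed, Ttn, the giant sarcomere protein, at 8097 and 6474 CPM in WT and 19358 and 18293 CPM in Sox17eKO, and the list summed to 18087 to 19333 CPM in WT and 31408 to 32052 CPM in Sox17eKO. Ttn made up most of that difference, and the other 5 summed to 11236 and 11613 CPM in WT and 12050 and 13759 CPM in Sox17eKO. Of 8 endothelial markers 1 passed, Tie1, an endothelial receptor (log2 fold change -0.34), and the list summed to 934 to 953 CPM in WT and 852 to 919 CPM in Sox17eKO. By edgeR, smooth muscle had 1 higher (Myocd) and 1 lower (Cnn1) of 5. Epicardium had 2 lower of 4 and erythroid cells 1 lower of 5. Limma-voom called 0 higher and 1 lower in smooth muscle, 2 lower in epicardium and 1 lower in erythroid cells. DESeq2 called 0 higher and 1 lower in smooth muscle, 1 lower in epicardium and 0 in erythroid cells. Macrophages had 0 of 4 by edgeR, limma-voom and DESeq2 and at an unadjusted p under 0.05. Over all genes tested, edgeR called 4.13% higher and 1.22% lower. The share of reads outside exons, given above, also moved with genotype. The part of any of these in the gamma A and B values was not tested.

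The beta median stayed below the gamma A and gamma B medians in the 18 alternative fits, which changed the tool, the scaling, the filter, the libraries or the removal of trends on length, GC content and gene span. The median log2 fold change was 0.14 to 0.29 for beta, 0.61 to 0.75 for gamma A and 0.67 to 0.97 for gamma B over these fits and the reported fit. The C-type median, 0.40, had no fixed place among them, at 0.20 without WT replicate 2 and 0.81 without WT replicate 1.

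**Figure D5:**
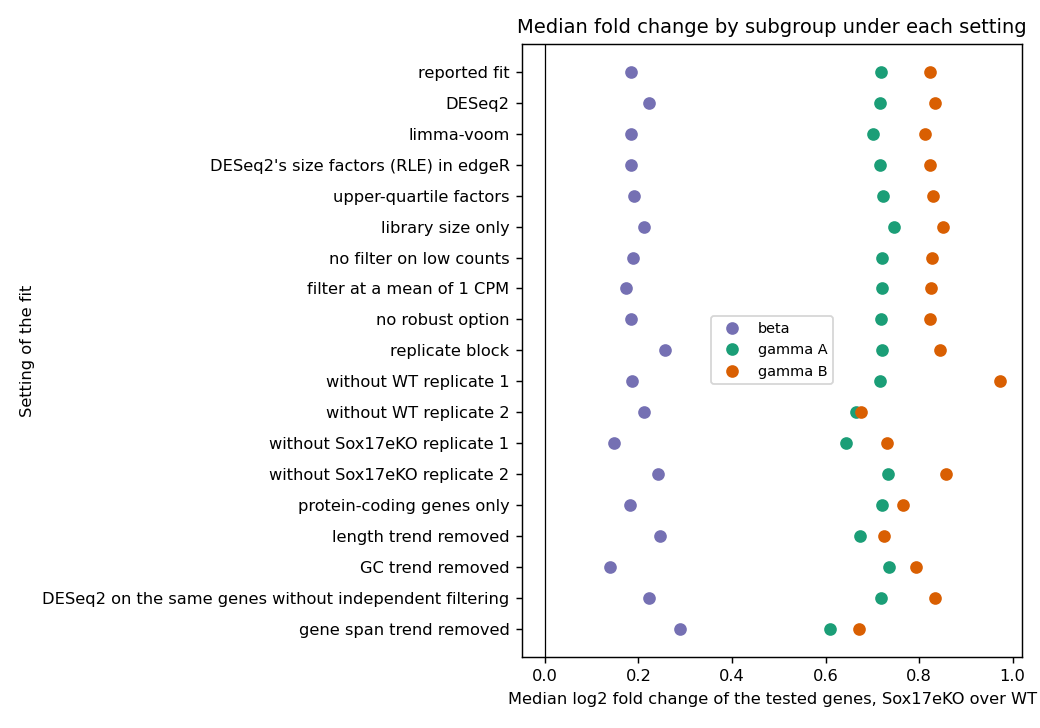
Median log2 fold change, Sox17eKO over WT, of the tested beta, gamma A and gamma B genes under the reported fit and each alternative fit, 1 row each, with a line at 0. The beta medians lie to the left of both gamma medians in every row, and the gamma B median lies furthest to the right without WT replicate 1.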

How the data were processed

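RNA was sequenced from 4 pools, 2 per genotype, as strand-specific libraries of total RNA per the labels' protocols. The deposited table holds whole read counts for each Ensembl gene, which the authors did not normalize. TopHat2, HTSeq and mm10 are named in the submitters' processing notes. Software versions, annotation release and strand setting are not given in the sources used here. Titles of the samples gave the groups and replicate numbers. Replicates of a genotype were separate libraries by a chi-square test of their counts (4.77 per degree of freedom for WT, 6.01 for Sox17eKO, where sampling noise alone gives about 1).

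Symbols, coordinates and exonic bases were taken from GENCODE M21, which matched 45143 of 45706 genes. Pcdha11 stood on 2 identifiers, of which ENSMUSG00000007440 was taken as Pcdha10 by its RefSeq position. HTSeq summary rows were left out. The test was edgeR's robust quasi-likelihood test (version 4.0.16, run in R 4.3.3, with TMM, filterByExpr with its preset minimum count of 10, prior count 0.125), with genotype as the only term and Benjamini-Hochberg adjustment over 16570 genes. It left 2 residual degrees of freedom and estimated a biological coefficient of variation of 0.0791. It was tested on simulated data. Standard errors were derived from each log2 fold change and its F statistic. CPM used TMM-scaled library sizes. Alternatives used limma 3.58.1, DESeq2 1.42.0 and mgcv 1.9.3, other scalings and filters, a replicate block, 1 library left out, protein-coding genes only, and trends on length or GC content removed. The removal of a trend on gene span and DESeq2 without independent filtering were chosen after seeing the data. Intervals and floors cover counting error or the fit's error only, since PCR copies were not marked by molecular identifiers and reads may share a molecule.

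The members and gene lists were chosen with earlier results of these data known. Genes named were all called members, up to 4 per subgroup with the highest CPM per kilobase, the 3 highest and 3 lowest log2 fold changes, the C-type genes, the genes just inside and outside the filter, the up to 4 with the largest gap between genotypes and, of the other lists, called genes with Ctcf, Rad21, Smchd1, Pcdh12, Taf7, Diaph1 and Sox17. Others are marked as chosen after their values were seen, or complete a list or order.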

Additional observations from a re-analysis of the deposited data

How the results depend on the processing

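The 19 gamma A and B genes were fitted higher in Sox17eKO in each of the 18 alternative fits (18 of 18 where only protein-coding genes were kept), and 0 beta genes were called in any that gave adjusted p-values. Called members numbered 15, with a range of 6 to 12 when 1 library was left out (6 to 12 of the 14 in gamma A and B), and 8 (8 in gamma A and B) with DESeq2 without independent filtering. Default DESeq2 gave no member an adjusted p. Calls over all genes, 886, became 424 with DESeq2, 356 with DESeq2 without independent filtering, 516 with limma-voom, 1364 without a filter on low counts, 144 with the length trend removed, 382 with the gene span trend removed and 105 to 975 with 1 library left out. With library sizes only, they were 773 higher and 116 lower, against 684 and 202. The replicate block gave 1684 calls over all genes, against 886, and 15 among the members. Replicate 1 deviations of the genotypes had a correlation of -0.0319 over genes. That correlation includes counting noise and cannot decide whether the replicate numbers pair the samples.

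The C-type median log2 fold change, 0.40, was 0.20 to 0.81 with 1 library left out. The log2 ratio of the C-type sums, 0.15, was 0.18 with library sizes only and 0.84 without Pcdhgc3, and that of the alpha sums, -0.03, turned to 0.0093 with library sizes only. The median WT level per kilobase on own instead of all exonic bases was 0.036 against 0.017 CPM in alpha, 2.97 against 1.49 in gamma A, 2.88 against 1.79 in gamma B and 0.31 against 0.19 in the C-type genes, since own bases are fewer. Fitted values near 0 changed sign, and the cause was not tested. With library sizes only, Pcdhb22 was 0.012 and Pcdh12 0.022, and with limma-voom Pcdh12 was 0.0088. With the gene span trend removed, Pcdhb22 was 0.073, Pcdh12 0.031, Ctcf -0.020 and Diaph1 -0.017. With the GC trend removed, Ctcf was -0.036 and Pcdh12 0.016. With the length trend removed, Smchd1 was -0.16. With the replicate block, Ctcf was -0.00093. With 1 library left out, the log2 fold change ranged over -0.020 to 0.16 in Pcdhb17, -0.14 to 0.081 in Pcdhb22, -0.0088 to 0.36 in Pcdhb20, -0.0083 to 0.078 in Pcdhgc3, -0.91 to 0.59 in Pcdhb2, -0.40 to 0.054 in Pcdhb18, -0.077 to 0.079 in Ctcf, -0.12 to 0.087 in Pcdh12 and -0.040 to 0.15 in Diaph1. With the GC trend removed, 16 members were called, Pcdhga2 and Pcdhgb2 being added. With the length trend removed 12 were, and Pcdhgb7 and Pcdhga11 were not among them. At this depth 11 alpha genes and 5 beta genes with reads fell under the filter.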

Other observations

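Other annotated genes lie inside the protocadherin locus, 27 of them in the table. They include Taf7 and Slc25a2, which were among the neighbours listed beforehand. The others were looked at after the family's values were seen. Gm26672, a noncoding transcript on the strand opposite to Pcdhga10, had 47 and 15 reads in WT and 48 and 80 in Sox17eKO (log2 fold change 0.26, 95% interval -0.36 to 0.88). In the annotation used, 0 exonic bases of Pcdhga10 are free of exons of other genes once both strands are considered, yet Pcdhga10 had 54 to 417 reads per library. BC037039, an antisense transcript that overlaps the start of Pcdhgc3, had 13 and 11 reads in WT and 11 and 24 in Sox17eKO (-0.29, SE 0.44), and Gm8242, a pseudogene before the gamma cluster, had 114 and 79 in WT and 123 and 153 in Sox17eKO (-0.29, SE 0.17). None of the 3 passed the edgeR test. Another 4 genes, Gm37013 among them, are annotated with no exonic base of their own and had 0 reads in every library.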
